A study of Mus musculus with 9 samples.

Results

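The 10 genes described here, Jun, Junb, Jund, Fos, Fosb, Fosl2, Atf3, Batf, Maff and Bach1, encode transcription factors of the AP-1 family and of its CNC and small Maf relatives. They were chosen by gene symbol, with earlier results of these data known, from 22064 genes listed in bulk RNA-seq of mouse lung neutrophils. All 10 had values, and all 10 were among the 14108 genes that passed the filter on low counts. The series holds 9 libraries in 3 groups of 3. Ly6Ghi are CD45+Ly6g-high neutrophils, and Ly6Glow are Ly6g-low neutrophils, both sorted from the lungs of female BALB/c mice at the macrometastatic stage, after orthotopic injection of 4T1-LM3 cells into the mammary fat pad. The 4T1-LM3 line was derived from 4T1 mouse mammary carcinoma cells by rounds of selection in vivo for spread to the lung. NL are Ly6g-high neutrophils from normal lung of female BALB/c mice that received no tumor cells. The description fields of the NL libraries name the Ly6g-high group only, so their assignment to normal lung rests on titles and treatment fields. All groups are BALB/c, and all lungs were digested with collagenase type I before staining and sorting. The mice were young adults when bought; their age at the sort, and whether a library held 1 mouse or pooled mice, are not given in the sources used here, so p-values measure the spread between these libraries only.

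AP-1 is a dimer of basic leucine zipper proteins, usually 1 of the Jun family (JUN, JUNB, JUND) with 1 of the Fos family (FOS, FOSB, FOSL2), that binds the DNA letters TGANTCA. ATF3 and BATF pair with Jun proteins. MAFF and BACH1 belong to related branches in which a small Maf protein pairs with a CNC protein at antioxidant and heme-responsive sites. Many of these genes are immediate early genes, transcribed within minutes of a signal through MAP kinases and degraded quickly as mRNA, and in myeloid cells they take part in the transcription of cytokines, chemokines and matrix proteases.

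Estimated counts summed to 15267177 to 17841807 per library. The 8 neutrophil markers were detected in every group, but their summed CPM (counts scaled to the TMM-normalized library size) was 84330 to 86420 in Ly6Ghi, 77920 to 79600 in Ly6Glow and 19910 to 20090 in NL. Each had its lowest mean in NL. Ngp had 17200 CPM in Ly6Ghi and 5901 CPM in Ly6Glow, while Csf3r, Cxcr2, Retnlg and Mmp8 were higher in Ly6Glow. S100a8, S100a9 and Itgam were slightly lower in Ly6Glow. Ly6g mRNA itself, whose protein defined the sort, was 361 to 380 CPM in Ly6Ghi, 385 to 403 CPM in Ly6Glow and 118 to 120 CPM in NL, so the transcript does not follow the names Ly6Ghi and Ly6Glow. Epithelial, endothelial and fibroblast markers were highest in NL. The summed CPM of 8 epithelial markers was 1105 to 1241 in NL against 104 to 112 in the tumor-bearing groups. That of 6 endothelial markers was 962 to 1036 against 142 to 182, and that of 6 fibroblast markers was 518 to 549 against 49.8 to 57.7. All markers of these 3 lists were detected in every group. The alveolar macrophage markers, 10 genes, summed to 2024 to 2068 CPM in NL, 1617 to 1671 CPM in Ly6Ghi and 339 to 358 CPM in Ly6Glow. Chil3 alone had a mean of 1274 CPM in Ly6Ghi, 277 CPM in Ly6Glow and 964 CPM in NL. Chil3 and Ear1 were higher in Ly6Ghi than in NL. The other markers of that list were lower, such as Mrc1 at 119 against 428 CPM and Marco at 0.829 against 15.8 CPM. The 8 markers of eosinophils, basophils and mast cells were highest in Ly6Ghi, at 85.8 to 91.7 CPM, against 44.4 to 46.1 CPM in Ly6Glow and 39.9 to 43.1 CPM in NL. Those of T, B and NK cells summed to 72.8 to 74.0 CPM in Ly6Ghi, 46.5 to 48.6 CPM in Ly6Glow and 75.6 to 76.4 CPM in NL. The part of these markers in the results below was not tested, and in bulk RNA fewer cells of a type and less RNA per cell cannot be told apart. NL replicate 2 stood apart from the other NL libraries, from which it differed by 5.30 and 4.05 times the counting variance against 1.41 to 2.51 times for the other pairs within a group, and it was the lowest of its group for 8 of the 10 genes. The log2 fold changes of the 10 genes against NL are therefore given also without it.

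The genes lie on 8 chromosomes of mouse build mm10. Fos and Batf are both on chromosome 12, at 85473890 to 85477274 and 85686720 to 85709087, and Jund and Junb are both on chromosome 8, at 70697739 to 70700616 and 84976909 to 84978748. Jun is at 95049036 to 95052222 of chromosome 4, Fosb at 19302696 to 19310118 of chromosome 7, Fosl2 at 32136472 to 32157840 of chromosome 5 and Atf3 at 191170296 to 191183333 of chromosome 1. Maff is at 79346621 to 79359078 of chromosome 15 and Bach1 at 87698954 to 87733346 of chromosome 16. In the GENCODE annotation Junb overlaps the protein-coding gene Prdx2 on the opposite strand, and Jun, Jund and Atf3 overlap the non-coding genes Junos, Gm11175 and Gm24748, also on the opposite strand. The libraries were strand-specific per the labels, but use of strand in the counting is not stated, so reads of these overlaps may be shared.

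For all 10 genes the 250 bases before each start in the RefSeq promoter table were read (GRCm38.p6, the build of mm10; the reference is not the BALB/c strain). Those of Jun and Junb are shown because these partners differed in opposite directions between the macrometastatic groups, and that of Atf3 because it stood far higher in NL. The start listed for Fosb and 2 of the 3 starts listed for Maff lie inside the annotated span of the gene, so these windows hold bases of the gene itself and are not shown. Capitals mark TGANNTCA, the CRE-like spacing of the AP-1 site, and TGACG, the first bases of its form TGACGTCA, on either strand.
Jun, chr4:95052223-95052472, minus strand: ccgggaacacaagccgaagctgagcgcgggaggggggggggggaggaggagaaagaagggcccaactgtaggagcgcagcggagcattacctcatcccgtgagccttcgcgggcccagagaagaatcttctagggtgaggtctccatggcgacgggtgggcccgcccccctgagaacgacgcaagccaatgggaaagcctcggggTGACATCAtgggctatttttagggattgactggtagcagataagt
Junb, chr8:84978749-84978998, minus strand: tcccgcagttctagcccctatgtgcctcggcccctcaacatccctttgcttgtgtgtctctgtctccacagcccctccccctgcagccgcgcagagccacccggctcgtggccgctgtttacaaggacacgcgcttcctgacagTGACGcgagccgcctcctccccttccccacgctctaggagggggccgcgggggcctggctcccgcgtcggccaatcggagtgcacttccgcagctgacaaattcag
Atf3, chr1:191183334-191183583, minus strand: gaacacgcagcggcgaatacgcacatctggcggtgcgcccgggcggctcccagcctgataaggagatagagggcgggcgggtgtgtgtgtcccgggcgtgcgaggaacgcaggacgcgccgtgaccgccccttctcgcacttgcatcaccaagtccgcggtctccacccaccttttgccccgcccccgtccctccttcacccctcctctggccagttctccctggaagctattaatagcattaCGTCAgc

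TGANTCA occurred in none of the 10 genes' windows, against 6.75% of 32851 promoters of the same length, and a CArG box, the letters bound by serum response factor, in none against 1.47%. TGANNTCA occurred in 3 genes, Jun, Jund and Maff, against 11.9% of promoters. In Jun its letters TGACATCA began 45 bases before the start, and the middle of 3 Maff starts held TGACGTCA 29 bases before it. TGACG, part of which can overlap TGANNTCA as in Maff, occurred in 6 genes, Junb, Fos, Fosb, Atf3, Batf and Maff, against 17.8% of promoters. The matches of Fosb and Maff were all in the bases within the gene span. A gene was counted if any of its windows held a match, and Maff had 3 windows, whereas the shares are of single promoters. The window of the first Maff start held no match. Thus Jun holds TGANNTCA without TGACG, and Junb TGACG without TGANNTCA, in these windows, which is a description of sequence and not of binding.

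**Figure D1:**
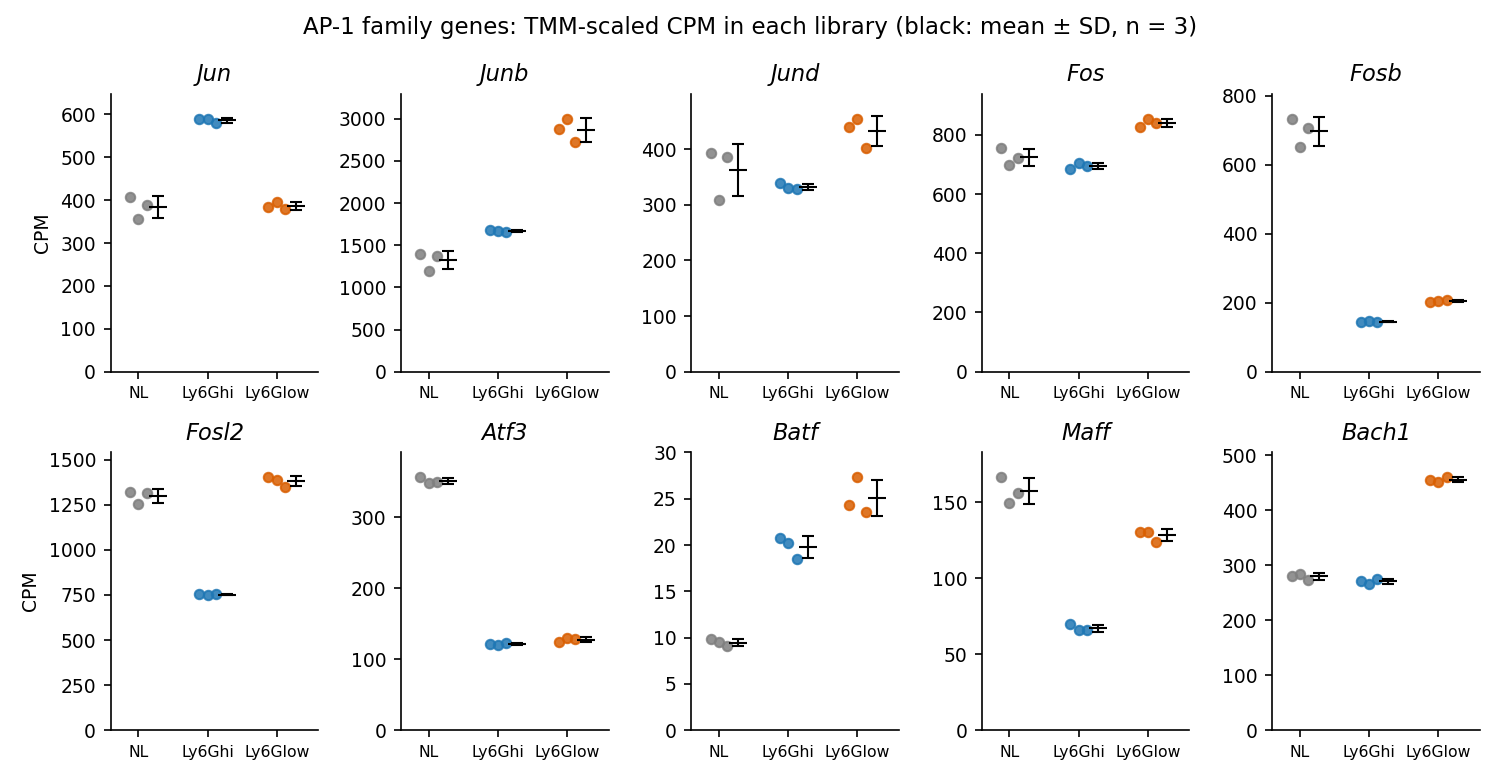
TMM-scaled CPM (vertical axis, from 0) of the 10 genes in each of the 9 libraries, with the mean ± SD of each group in black. Jun is highest in Ly6Ghi, Junb and Bach1 in Ly6Glow, Fosb and Atf3 in NL.

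Jun and Junb went opposite ways within the tumor-bearing lung: Jun, the founding member of the family, was higher in Ly6Ghi, and Junb was higher in Ly6Glow. Jun had 588, 590 and 579 CPM in Ly6Ghi, 384, 396 and 379 CPM in Ly6Glow and 406, 357 and 388 CPM in NL. The Ly6Ghi libraries were all above those of both other groups, and Ly6Glow and NL overlapped. Jun fell in Ly6Glow against Ly6Ghi by 0.60 on the log2 scale (SE 0.04, edgeR adjusted p = 1.84e-11), a 1.52-fold lower level. This lies close to the fold threshold of 0.58, and with DESeq2's size factors the value was -0.53 and Jun was not called. Jun was higher in Ly6Ghi than in NL by 0.61 (SE 0.04, adjusted p = 2.11e-12), but by 0.57 without NL replicate 2, which is under the threshold. Between Ly6Glow and NL the log2 fold change was 0.01 (SE 0.04, adjusted p = 0.806), and -0.04 without NL replicate 2 (adjusted p = 0.217).

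Junb had 1678, 1672 and 1659 CPM in Ly6Ghi, 2883, 3001 and 2725 CPM in Ly6Glow and 1400, 1198 and 1375 CPM in NL. No group overlapped another, in the order NL, Ly6Ghi, Ly6Glow. Junb, whose protein can replace JUN in AP-1 dimers and is linked to restraint of myeloid growth, rose 1.72-fold in Ly6Glow over Ly6Ghi (log2 0.78, SE 0.04, adjusted p = 1.63e-12) and 2.17-fold in Ly6Glow over NL (log2 1.12, SE 0.04, adjusted p = 4.5e-16; 1.05 without NL replicate 2). The log2 fold change of Ly6Ghi over NL was 0.33 (SE 0.04, adjusted p = 4.33e-07), under the fold threshold, and it was 0.27 without NL replicate 2 and -0.13 on the log2(FPKM + 1) scale. Jund, the constitutively expressed Jun gene, had 339, 330 and 329 CPM in Ly6Ghi, 441, 454 and 402 CPM in Ly6Glow and 392, 309 and 385 CPM in NL. It passed the fold threshold in none of the 3 comparisons, with log2 fold changes of 0.38 (SE 0.06) in Ly6Glow over Ly6Ghi, -0.12 (SE 0.06) in Ly6Ghi over NL and 0.25 (SE 0.06) in Ly6Glow over NL, the last being -0.44 on the FPKM scale. The wide NL range comes with NL replicate 2, without which Ly6Ghi over NL was -0.22 and Ly6Glow over NL 0.16.

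Among the Fos genes, Fosl2 and Fosb passed the fold threshold in 2 comparisons each and Fos in none. Fos, the prototype immediate early gene, had 684, 705 and 695 CPM in Ly6Ghi, 826, 854 and 839 CPM in Ly6Glow and 755, 698 and 721 CPM in NL. It was under the fold threshold everywhere, at 0.27 (SE 0.03) in Ly6Glow over Ly6Ghi, -0.06 (SE 0.03, adjusted p = 0.0836) in Ly6Ghi over NL and 0.21 (SE 0.03) in Ly6Glow over NL, which was -0.49 on the FPKM scale. Without NL replicate 2 the values against NL were -0.08 in Ly6Ghi, where the adjusted p became 0.00443, and 0.19 in Ly6Glow. Fosb, a relative of Fos with the same dimer partners, had 145, 147 and 144 CPM in Ly6Ghi, 201, 205 and 207 CPM in Ly6Glow and 733, 651 and 705 CPM in NL. The NL libraries were all far above the others. Fosb was 4.79-fold lower in Ly6Ghi than in NL (log2 -2.26, SE 0.04, adjusted p = 6.05e-22; -2.30 without NL replicate 2) and 3.41-fold lower in Ly6Glow than in NL (log2 -1.77, SE 0.04, adjusted p = 1.75e-20; -1.81 without NL replicate 2). Within the tumor-bearing lung it was 1.41-fold higher in Ly6Glow (log2 0.49, SE 0.04, adjusted p = 1.39e-09), short of the fold threshold.

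Fosl2, which encodes FRA-2, had 754, 748 and 754 CPM in Ly6Ghi, 1403, 1389 and 1349 CPM in Ly6Glow and 1320, 1254 and 1318 CPM in NL. Here Ly6Ghi stood alone and low, and Ly6Glow and NL were close, without overlap. Fosl2 rose 1.84-fold in Ly6Glow over Ly6Ghi (log2 0.88, SE 0.03, adjusted p = 4.16e-16) and was 1.73-fold lower in Ly6Ghi than in NL (log2 -0.79, SE 0.03, adjusted p = 2.47e-16; -0.81 without NL replicate 2). Ly6Glow over NL was 0.09 (SE 0.03, adjusted p = 0.00846), under the fold threshold, and was 0.07 without NL replicate 2. It turned to -0.10 with upper-quartile scaling and -0.61 on the FPKM scale.

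Atf3 and Batf, the Jun partners, moved apart when set against NL. Atf3, a stress-induced gene whose protein often represses, had 122, 121 and 123 CPM in Ly6Ghi, 125, 130 and 129 CPM in Ly6Glow and 357, 349 and 350 CPM in NL. It was 2.89-fold lower in Ly6Ghi than in NL (log2 -1.53, SE 0.03, adjusted p = 1.9e-20) and 2.75-fold lower in Ly6Glow than in NL (log2 -1.46, SE 0.03, adjusted p = 4.09e-20), and leaving out NL replicate 2 gave the same values to 2 decimals. Between Ly6Glow and Ly6Ghi the log2 fold change was 0.07 (SE 0.04, adjusted p = 0.116), although the 3 Ly6Glow libraries lay just above the 3 Ly6Ghi libraries, and on the FPKM scale it was -0.16. Batf, known for its part in T cell and dendritic cell differentiation, was the least abundant, with 20.8, 20.2 and 18.5 CPM in Ly6Ghi, 24.4, 27.3 and 23.6 CPM in Ly6Glow and 9.84, 9.49 and 9.06 CPM in NL. It was 2.10-fold higher in Ly6Ghi than in NL (log2 1.07, SE 0.08, adjusted p = 4.39e-11) and 2.65-fold higher in Ly6Glow than in NL (log2 1.41, SE 0.08, adjusted p = 2.87e-13). Without NL replicate 2 both log2 values were again 1.07 and 1.41. Ly6Glow over Ly6Ghi was 0.34 (SE 0.07, adjusted p = 0.000535), under the fold threshold.

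Maff and Bach1, whose proteins can form a dimer, were both higher in Ly6Glow than in Ly6Ghi. Maff, a small Maf gene, had 69.9, 66.1 and 65.8 CPM in Ly6Ghi, 131, 131 and 124 CPM in Ly6Glow and 167, 150 and 156 CPM in NL. The 3 groups did not overlap, with Ly6Ghi the lowest. Maff rose 1.91-fold in Ly6Glow over Ly6Ghi (log2 0.93, SE 0.05, adjusted p = 2.68e-13) and was 2.34-fold lower in Ly6Ghi than in NL (log2 -1.23, SE 0.05, adjusted p = 1.38e-16; -1.26 without NL replicate 2). Ly6Glow over NL was -0.29 (SE 0.04, adjusted p = 1.99e-06), under the fold threshold, -0.33 without NL replicate 2, and -0.94 and called on the FPKM scale. Bach1, a heme-regulated repressor of antioxidant genes, had 271, 266 and 275 CPM in Ly6Ghi, 454, 451 and 460 CPM in Ly6Glow and 281, 285 and 273 CPM in NL. Ly6Glow stood alone above the other groups, which overlapped. Bach1 rose 1.68-fold in Ly6Glow over Ly6Ghi (log2 0.75, SE 0.03, adjusted p = 1.37e-14) and 1.63-fold in Ly6Glow over NL (log2 0.70, SE 0.03, adjusted p = 3.78e-15; 0.72 without NL replicate 2), but on the FPKM scale the latter was 0.0029. Ly6Ghi over NL was -0.05 (SE 0.03, adjusted p = 0.176), and -0.03 without NL replicate 2 (adjusted p = 0.326).

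**Figure D2:**
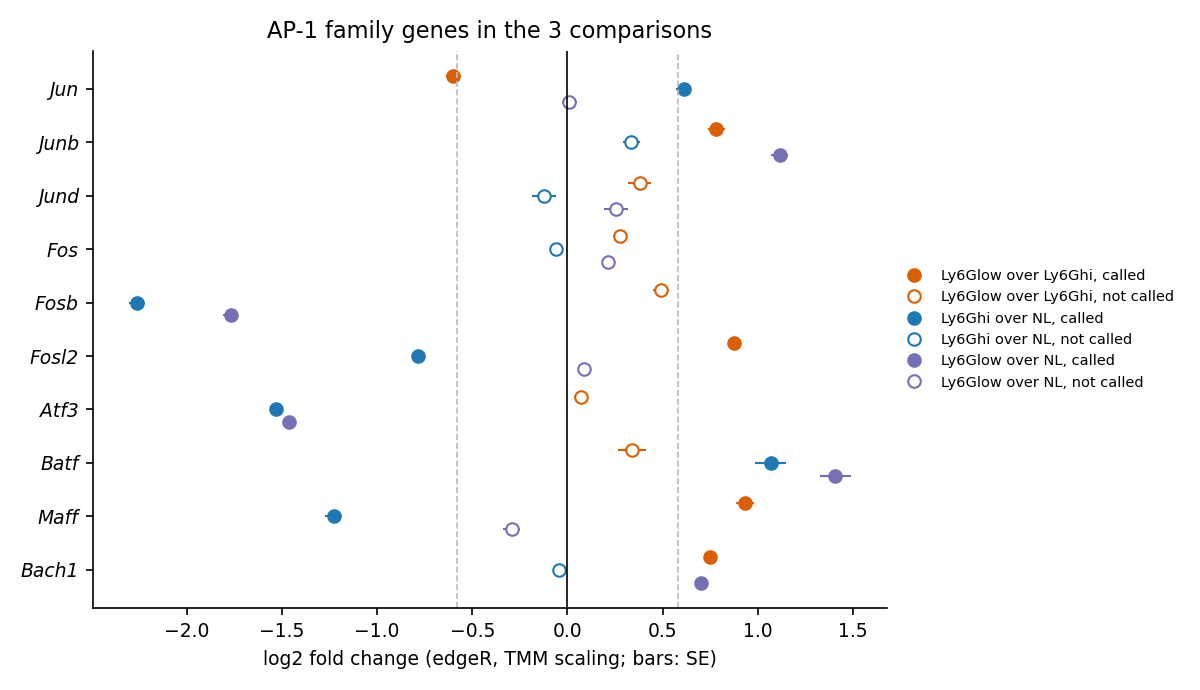
Log2 fold changes (horizontal axis; bars are SE) of the 10 genes in 3 comparisons, with filled points for called genes and dashed lines at the fold threshold of 0.58. Fosl2 and Maff are called in Ly6Glow over Ly6Ghi and in Ly6Ghi over NL, in opposite directions, and Fosb and Atf3 lie lowest in both comparisons with NL.

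Within macrometastatic lung, Junb, Fosl2, Maff and Bach1 were higher and Jun lower in Ly6Glow than in Ly6Ghi. Calls needed an adjusted p no larger than 0.05 together with a log2 fold change beyond 0.58 in either direction. These were 5 of 10 genes called, where 25.2% of all tested genes were called. By direction they were 4 higher, against 9.29% of all genes, and 1 lower, against 15.9%. The median log2 fold change of the 10 genes was 0.43, and that of all tested genes -0.04. All 10 genes had libraries that did not overlap between these groups, as had 62.1% of all tested genes. On the log2(FPKM + 1) scale only Fosl2 (0.64) and Maff (0.70) were called higher, with Junb at 0.54 and Bach1 at 0.51, and Jun was called lower at -0.83. Of 18317 genes tested on that scale, 317 were called higher and 1926 lower.

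In Ly6Ghi against NL, Jun and Batf were higher and Fosb, Fosl2, Atf3 and Maff lower. These 6 called genes stood beside 62.9% of all genes called, with 2 higher against 26.3% and 4 lower against 36.6%. The median over the 10 genes was -0.09, and over all tested genes also -0.09, and 7 genes did not overlap, against 85.2%. In Ly6Glow against NL, Junb, Batf and Bach1 were higher and Fosb and Atf3 lower, or 5 genes called against 69.5%, with 3 higher against 28.7% and 2 lower against 40.8%. The median was 0.15 against -0.16 over all tested genes, and 9 genes did not overlap, against 86.8%. Both comparisons share the NL libraries. The summed markers of epithelial, endothelial and fibroblast cells given above were also higher in NL than in both other groups, and their part was not tested.

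The values against NL depend on the scaling. The TMM factors were 0.945 to 0.950 in Ly6Ghi, 0.803 to 0.807 in Ly6Glow and 1.30 to 1.32 in NL, and FPKM values carry no such factor. The median of all tested genes in Ly6Ghi over NL was -0.09 with TMM, -0.28 with upper-quartile scaling and -0.32 on the log2(FPKM + 1) scale. In Ly6Glow over NL it was -0.16, -0.35 and -0.49, and in Ly6Glow over Ly6Ghi -0.04, -0.04 and -0.13. Relative to these medians, Fosb in Ly6Ghi over NL was -2.17 with TMM and -2.37 on the FPKM scale, Atf3 -1.44 and -1.65, Maff -1.14 and -1.32, and Batf 1.16 and 0.89. Jun in Ly6Ghi over NL stood 0.70 above the median with TMM and 0.47 above it on the FPKM scale. Junb in Ly6Glow over NL stood 1.27 and 0.91 above it, and Bach1 0.86 and 0.49 above it. On the log2(FPKM + 0.1) scale the medians of all tested genes were lower, at -0.51 in Ly6Ghi over NL and -0.81 in Ly6Glow over NL. Positions relative to the FPKM median therefore depend on the value added to FPKM.

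**Figure D3:**
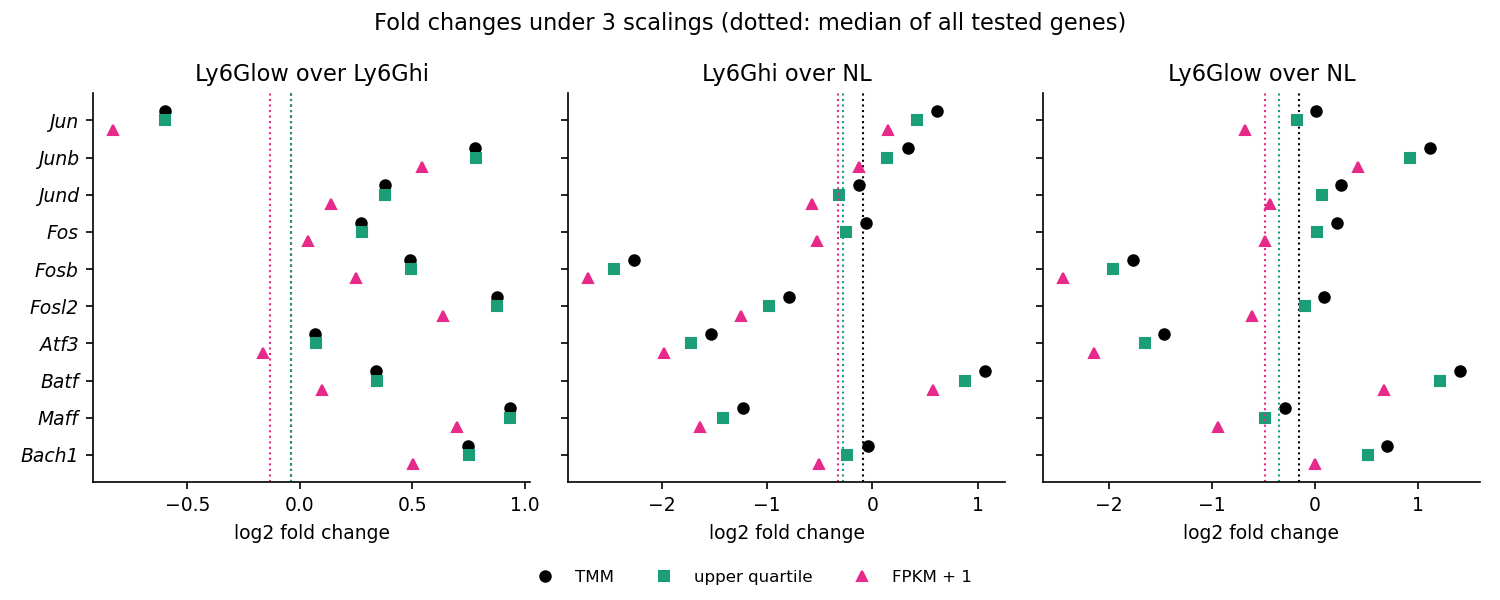
Log2 fold changes (horizontal axes) of the 10 genes in 3 comparisons under TMM, upper-quartile scaling and log2(FPKM + 1), with the median of all tested genes dotted in the same color. Against NL, points and medians shift together with upper-quartile scaling, but with FPKM the points move down further than the medians. Jun in Ly6Glow over NL goes from 0.01 with TMM to -0.68 with FPKM, and relative to the median from 0.17 to -0.19. On the log2(FPKM + 0.1) scale, not drawn, Jun was at -0.69 and the median lower, at -0.81.

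Per length, Junb was the most abundant of the 10 mRNAs in every group. Its FPKM (fragments scaled for transcript length and library size) was 884 ± 3.53 in Ly6Ghi, 1290 ± 59.9 in Ly6Glow and 967 ± 71.5 in NL (mean ± SD, n = 3), at rank 65, 39 and 39 of 18325 genes. Next came Fos, with 320 ± 5.61, 328 ± 4.87 and 460 ± 13.9 FPKM. In Ly6Ghi, Jun (177 ± 1.56 FPKM), Fosl2 (123 ± 0.591 FPKM) and Jund (111 ± 1.53 FPKM) followed. In Ly6Glow the order was Fosl2 (191 ± 3.83 FPKM), Jund (123 ± 7.55 FPKM) and Jun (99.1 ± 1.98 FPKM). In NL it was Fosl2 (292 ± 5.86 FPKM), Fosb (248 ± 12.1 FPKM) and Atf3 (239 ± 1.54 FPKM), of which Fosb and Atf3 did not differ beyond their spread. Batf was the lowest in all 3 groups, at 22.0 ± 1.26, 23.6 ± 1.81 and 14.5 ± 0.571 FPKM.

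**Figure D4:**
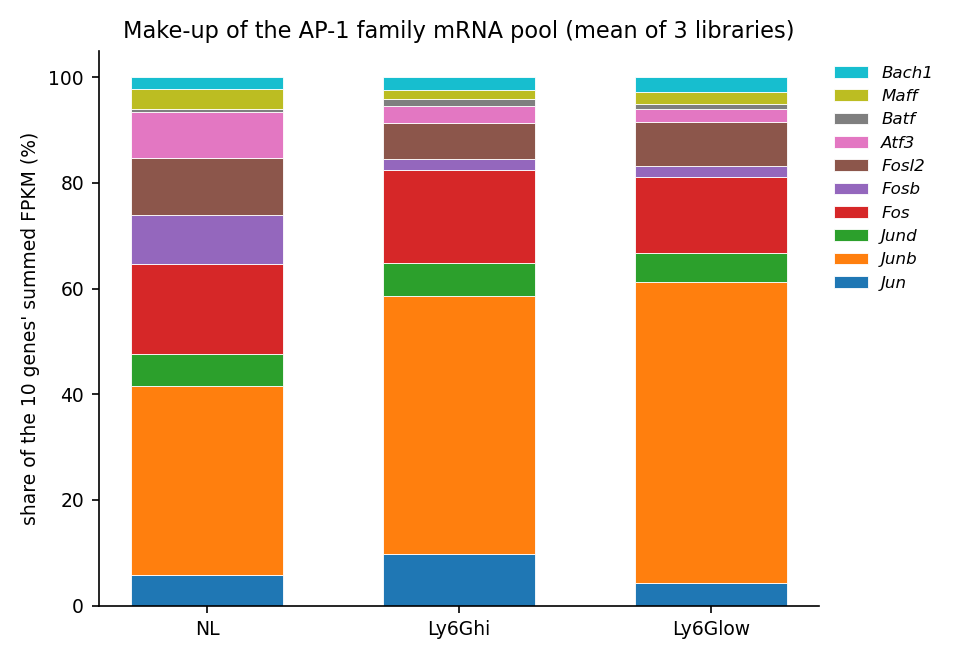
Share of each gene (vertical axis, percent, mean of 3 libraries) in the summed FPKM of the 10 genes, by group. Junb takes 48.9% in Ly6Ghi, 56.9% in Ly6Glow and 35.7% in NL, and Fosb and Atf3 take their largest shares in NL.

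The summed FPKM of the 10 genes was 1803 to 1817 in Ly6Ghi, 2188 to 2339 in Ly6Glow and 2562 to 2812 in NL, without overlap. Their summed CPM was 4642 to 4671 in Ly6Ghi, 6637 to 7038 in Ly6Glow and 5259 to 5821 in NL, so Ly6Ghi was lowest on both scales and the order of Ly6Glow and NL depended on the scale. Junb made up 48.9% ± 0.102 of this sum in Ly6Ghi, 56.9% ± 0.750 in Ly6Glow and 35.7% ± 0.982 in NL (mean ± SD, n = 3). Jun made up 9.78% ± 0.0512, 4.37% ± 0.0691 and 5.90% ± 0.0669, and Fosl2 6.78% ± 0.0581, 8.43% ± 0.202 and 10.8% ± 0.332. Fosb made up 2.07% ± 0.0158, 1.97% ± 0.0885 and 9.15% ± 0.0450, and Atf3 3.31% ± 0.0449, 2.36% ± 0.0978 and 8.82% ± 0.452. The 3 Jun genes together took 64.8% ± 0.209 in Ly6Ghi, 66.7% ± 0.838 in Ly6Glow and 47.7% ± 1.45 in NL, and the 3 Fos genes 26.5% ± 0.284, 24.9% ± 0.662 and 36.9% ± 0.754. Between the tumor-bearing groups these totals lay closer together than the shares of Jun, Junb or Fosl2 did in proportion.

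Ratios within a library need no scaling between libraries. The FPKM ratio of Junb to Jun was 5.00, 4.97 and 5.02 in Ly6Ghi, 13.2, 13.3 and 12.6 in Ly6Glow and 6.04, 5.89 and 6.22 in NL. No group overlapped another, and the Ly6Glow libraries were far above both others. The ratio of Fosl2 to Jun was 0.691, 0.684 and 0.703 in Ly6Ghi, 1.97, 1.89 and 1.92 in Ly6Glow and 1.75, 1.90 and 1.84 in NL, where the latter groups overlapped. The ratio of Fosl2 to Fos was 0.384 ± 0.00745 in Ly6Ghi, 0.582 ± 0.0171 in Ly6Glow and 0.634 ± 0.0143 in NL (n = 3). That of Fosb to Fos was 0.117 ± 0.00117, 0.136 ± 0.00222 and 0.539 ± 0.0133 (n = 3), with NL alone and high. With 3 libraries a group an exact permutation test of 1 ratio cannot give a two-sided p under 0.1, and none was run.

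**Figure D5:**
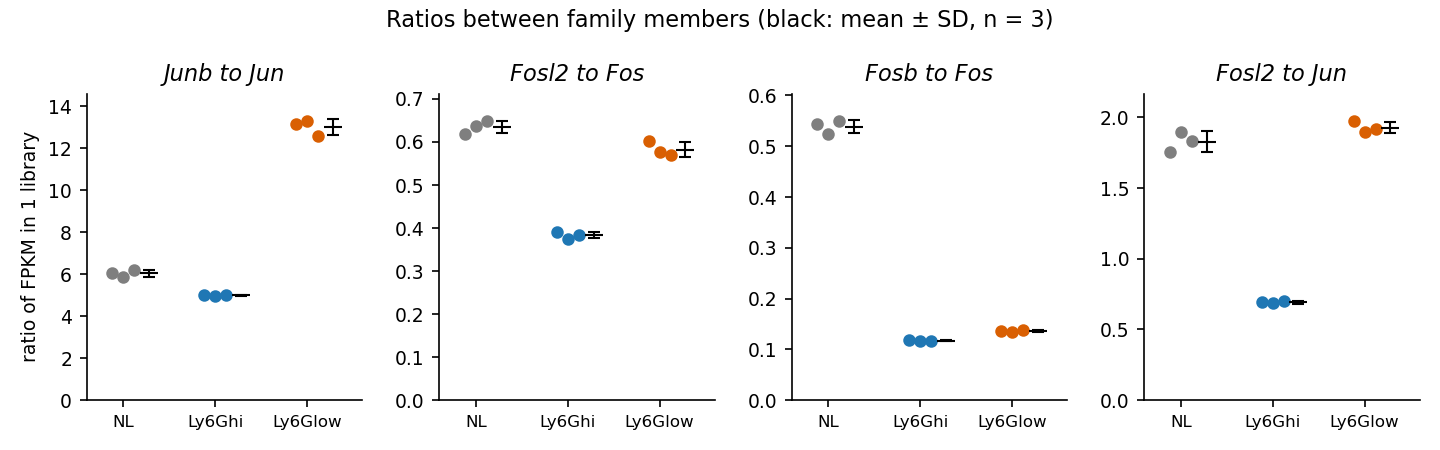
FPKM ratios of 4 pairs of genes (vertical axes, from 0) in each of the 9 libraries, with the mean ± SD of each group in black. Junb to Jun sets Ly6Glow apart (mean 13.0 against 4.99 in Ly6Ghi), and Fosb to Fos sets NL apart (mean 0.539).

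Other genes of the pathway were counted from 6 lists, chosen with earlier results of these data known, against the shares of all tested genes called. These shares were 9.29% higher and 15.9% lower in Ly6Glow over Ly6Ghi, 26.3% and 36.6% in Ly6Ghi over NL, and 28.7% and 40.8% in Ly6Glow over NL. The medians of all tested genes in these comparisons were -0.04, -0.09 and -0.16. These shares and medians are those of edgeR on counts. On the log2(FPKM + 1) scale 18317 genes were tested, and 317 were called higher and 1926 lower in Ly6Glow over Ly6Ghi. The all-gene calls on that scale were 1436 higher and 5162 lower in Ly6Ghi over NL, and 1128 and 6473 in Ly6Glow over NL. Leaving out NL replicate 2 gave 1 gene more higher among the bZIP genes and 1 gene fewer higher among the immediate early and turnover genes in Ly6Ghi over NL, and the same counts elsewhere. Among 20 further bZIP genes of the same and neighbouring families, 5 were higher and 2 lower in Ly6Glow than in Ly6Ghi, or 4 and 2 on the FPKM scale. Jdp2, a repressor that pairs with JUN, went from 225 ± 4.73 to 536 ± 13.7 CPM (log2 1.25, SE 0.04, adjusted p = 3.58e-16), and Fosl1, which encodes FRA-1, from 49.1 ± 1.60 to 109 ± 5.62 CPM. Crem, a cAMP-responsive gene, rose by 1.45 on the log2 scale, and Nfe2l2, the antioxidant activator NRF2 and a partner of small Maf proteins, by 0.84. Against NL, 3 were higher and 6 lower in Ly6Ghi, and 7 higher and 4 lower in Ly6Glow, which became 3 and 8, and 4 and 10, on the FPKM scale. The median of the list was 0.18 in Ly6Glow over Ly6Ghi, 0.03 in Ly6Ghi over NL and 0.04 in Ly6Glow over NL, and -0.05, -0.38 and -0.58 on the FPKM scale. Nfe2, the blood-cell partner of small Maf proteins, was higher in both (log2 1.83 and 1.90). Batf2 was at 0.746 ± 0.289 and 0.619 ± 0.0606 CPM in Ly6Ghi and Ly6Glow and at 15.6 ± 1.22 CPM in NL.

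Upstream, 28 genes of the MAP kinase pathways and their nuclear targets were tested, and 7 were higher and 2 lower in Ly6Glow than in Ly6Ghi. Srf, which encodes serum response factor, rose by 0.83 (SE 0.05), Map2k3, which activates p38, by 0.74 (SE 0.04), Elk4, a partner of serum response factor, by 0.69 (SE 0.04) and Map3k11 by 0.61 (SE 0.05). On the log2(FPKM + 1) scale 0 of these genes were called higher and 1 lower. Map3k11 was under the threshold without Ly6Glow replicate 2. Against NL, 11 were higher and 5 lower in Ly6Ghi and 14 higher and 5 lower in Ly6Glow, which became 4 and 9, and 3 and 8, on the FPKM scale. The list's median was 0.18 in Ly6Glow over Ly6Ghi, 0.31 in Ly6Ghi over NL and 0.61 in Ly6Glow over NL. On the FPKM scale these medians were -0.06, -0.15 and -0.09, beside -0.13, -0.32 and -0.49 over all genes. Mapk13, a p38 kinase, was higher by 2.18 in Ly6Ghi and 2.28 in Ly6Glow.

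Of 24 immediate early genes outside AP-1, 13 were higher and 3 lower in Ly6Glow than in Ly6Ghi, with a median of 0.60 against -0.04 over all tested genes. Nr4a3, a nuclear orphan receptor, went from 58.9 ± 0.831 to 153 ± 7.17 CPM (log2 1.37, SE 0.04, adjusted p = 7.55e-17), and Egr1, a zinc finger factor, from 298 ± 3.33 to 572 ± 10.8 CPM (log2 0.94, SE 0.03, adjusted p = 2.88e-16). Egr3 rose by 1.13 and Dusp2, a phosphatase that acts on MAP kinases, by 0.93. On the FPKM scale the counts were 7 and 3. In Ly6Ghi against NL 5 were higher and 10 lower, or 2 and 13 on the FPKM scale. Nr4a3 (511 ± 9.67 CPM in NL), Nr4a2, Klf4 and Egr2 were lower by 3.12, 2.34, 2.22 and 2.07 on the log2 scale. Ly6Glow against NL gave 9 higher and 7 lower, or 4 and 10 on the FPKM scale, among them Nfkbia, the inhibitor of NF-kB, higher by 2.42 and Egr2 at -2.67. The median against NL, less that of all genes, was -0.21 in Ly6Ghi and 0.48 in Ly6Glow. It was -0.43 and 0.12 on the log2(FPKM + 1) scale, and -0.25 and 0.44 on the log2(FPKM + 0.1) scale. With at least 10 counts in every library it was -0.44 and 0.20.

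Downstream, 20 genes known as AP-1 targets held 9 higher and 1 lower in Ly6Glow over Ly6Ghi, 7 and 3 on the FPKM scale. Il1b, the pro-inflammatory cytokine, went from 2799 ± 54.3 to 6698 ± 77.2 CPM (log2 1.26, SE 0.03, adjusted p = 1.8e-19), and Cxcl2, a neutrophil chemokine, from 1664 ± 12.3 to 3859 ± 232 CPM (log2 1.21, SE 0.04, adjusted p = 5.11e-17). Ptgs2, which encodes cyclooxygenase 2, rose by 1.28 and Spp1, which encodes osteopontin, by 1.20. Against NL, 2 were higher and 12 lower in Ly6Ghi, and 6 higher and 9 lower in Ly6Glow, which became 2 and 15, and 3 and 11, on the FPKM scale. In Ly6Glow over NL the edgeR counts were near the shares of all genes, and in Ly6Ghi over NL fewer were higher and more lower. The list's median was 0.45 in Ly6Glow over Ly6Ghi, -0.77 in Ly6Ghi over NL and -0.23 in Ly6Glow over NL. Mmp8, the neutrophil collagenase, was higher in both (log2 1.86 and 2.56). It is also in the neutrophil marker list, whose summed CPM was lowest in NL. Ccnd1, which encodes cyclin D1, and Itgax, the integrin CD11c, were lower in both (log2 -2.90 and -2.84 for Ccnd1, -2.55 and -3.10 for Itgax). The markers of other cells that were high in NL went the same way as this list in Ly6Ghi over NL. In Ly6Glow over NL the list's edgeR median was near that of all tested genes, at -0.23 against -0.16. The part of these markers was not tested in either comparison.

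Of 12 genes that BACH1 is known to repress, 5 were higher and 0 lower in Ly6Glow than in Ly6Ghi by edgeR, and Bach1 itself was also higher. With the fold threshold kept, the count lower was 0 too with DESeq2 and with an unadjusted p under 0.05. It was 1 on the FPKM scale by limma, or 2 with a pseudocount of 0.1. Without the fold threshold 9 were higher and 2 lower, beside 3686 and 4182 of all 14108 genes. These 2 were Nqo1 (log2 -0.40, edgeR adjusted p = 0.0257) and Slc48a1 (log2 -0.42, edgeR adjusted p = 0.000497). Slc7a11, the cystine transporter, rose by 1.69 (SE 0.04) from 330 ± 3.86 to 1068 ± 39.7 CPM, Srxn1, a sulfiredoxin, by 1.57 (SE 0.05), Fth1, ferritin heavy chain, by 0.98 (SE 0.03) and Txnrd1, thioredoxin reductase, by 0.88 (SE 0.03). Against NL, 3 were higher and 4 lower in Ly6Ghi and 4 higher and 2 lower in Ly6Glow, which became 3 and 6, and 3 and 3, on the FPKM scale. The edgeR counts in Ly6Ghi over NL were near the shares of all genes, and in Ly6Glow over NL the count lower was under them. The list's median was 0.42 in Ly6Glow over Ly6Ghi, -0.10 in Ly6Ghi over NL and 0.41 in Ly6Glow over NL, the last being -0.29 on the FPKM scale. Gclm, of glutathione synthesis, was higher in both (log2 2.41 and 3.28), as was the iron exporter Slc40a1 (log2 1.82 and 2.22). Of 16 genes that limit AP-1 activity or turnover, 5 were higher and 2 lower in Ly6Glow than in Ly6Ghi. Jdp2, named above among the bZIP genes, is also on this list and is counted in both. Dusp6, Dusp16 and Dusp5, phosphatases of MAP kinases, rose by 1.15, 1.12 and 1.00 on the log2 scale. Dusp4 of the same list was called lower, with a log2 fold change of -1.10 and 3.74 CPM in Ly6Ghi against 1.73 CPM in Ly6Glow. Dusp10 was not called. Against NL, 3 were higher and 5 lower in Ly6Ghi, and 5 higher and 2 lower in Ly6Glow, which became 2 and 6, and 3 and 5, on the FPKM scale. The median of the 16 genes was 0.24 in Ly6Glow over Ly6Ghi, 0.005 in Ly6Ghi over NL and 0.30 in Ly6Glow over NL, and -0.0034, -0.37 and -0.34 on the FPKM scale. Cop1 and Itch, ubiquitin ligases known to act on JUN, were higher in both (log2 1.48 and 1.64 for Cop1, 1.48 and 1.73 for Itch).

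The genes whose log2 CPM followed each member most closely over the 9 libraries were found among 7388 others with a mean of at least 10 CPM. The libraries share 3 groups and their scaling, so these correlations are descriptions of group levels. Junb was followed most closely by Cebpb (Pearson's r = 0.9991), the myeloid factor C/EBP-beta, at 1211, 2248 and 940.7 CPM in Ly6Ghi, Ly6Glow and NL. Fosl2 was followed by Smox (r = 0.999), spermine oxidase, and Ets2 (r = 0.9966), Bach1 by Ctnnb1 (r = 0.9985), beta-catenin, and Adam17 (r = 0.998), and Maff by Dusp5 (r = 0.9982) and Timp2 (r = 0.9979). Jun was followed by Pip4k2b (r = 0.9957) and Lyl1 (r = 0.9931), Fos by Mapkapk2 (r = 0.99) and Sesn2 (r = 0.9885), and Jund less closely by H2-D1 (r = 0.9559). Batf was followed by Arf1 (r = 0.9959) and Numb (r = 0.9958). Fosb was followed by Mprip (r = 0.9996) and Vegfa (r = 0.9992). Atf3 was followed by Tspan7 (r = 0.9997) and Eng (r = 0.9996), the endothelial gene endoglin, at 13.3, 14.8 and 144 CPM in Ly6Ghi, Ly6Glow and NL.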

How the data were processed

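RNA of sorted lung neutrophils was sequenced in 9 libraries, 3 in each of 3 groups, which were taken from the titles of the labels. Per the labels the libraries were poly(A)-selected, strand-specific and paired-end, and the build was mm10 (submitters' processing notes). Aligner and counter are not given in the sources used here. The estimated counts deposited by the authors were not normalized; 37.9% were whole, and all were rounded here. The FPKM values deposited by the authors were scaled for length and fragments. Of 22064 genes, 3739 were blank.

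Tests on the counts used edgeR 4.0.16 under R 4.3.3 (filterByExpr by group, TMM, quasi-likelihood F test, all 9 libraries in 1 model), with Benjamini-Hochberg adjustment over 14108 genes. Calls needed an adjusted p no larger than 0.05 and a log2 fold change beyond 0.58 in either direction. The SE is the log2 fold change divided by the square root of F. CPM are means over 3 libraries. The procedure recovered most changes seeded in a small part of the genes of a simulated Ly6Glow group. All seeded changes lay beyond the fold threshold, and no difference in scaling between groups was simulated. Values near the threshold and the scaling against NL were therefore not covered. Depth was 15267177 to 17841807 estimated counts, and the median biological coefficient of variation of 0.043 covers these libraries only.

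The 10 members and the 6 lists were chosen with earlier results of these data known. All members were named. From each list up to 4 called genes with the largest change, at least 10 CPM in the higher group and no overlap of libraries were eligible, and per member the 2 genes of highest Pearson correlation. Alternatives were DESeq2's size factors, upper-quartile scaling, DESeq2 1.42.0, other filters, the 6 libraries of a comparison alone, limma 3.58.1 on log2(FPKM + 1) or log2(FPKM + 0.1), other thresholds, leaving out single replicates and a replicate block. Same-numbered libraries did not deviate together (correlations of -0.0683 to 0.0766), so numbers were not taken as pairs. Promoter and gene positions are from RefSeq (GRCm38.p6) and overlaps from GENCODE M21; all 10 genes matched by symbol.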

Additional observations from a re-analysis of the deposited data

How the results depend on the processing

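Of 480 alternative values of the 10 genes' 30 log2 fold changes, 429 kept direction and call, 24 were lost as calls, 3 became calls and 24 reversed, and 38 of these changes were on the FPKM scale. The FPKM values below are with a pseudocount of 1, and a minimum FPKM of 1 in 3 libraries gave the same values for these genes. In Ly6Glow over Ly6Ghi, Atf3 reversed to -0.16 (-0.17 with a pseudocount of 0.1) on that scale. Junb (0.54) and Bach1 (0.51) were not called, leaving 2 genes called higher. Over all 18317 genes tested on that scale 317 were called higher and 1926 lower, against 1310 and 2250 of 14108 on counts. Jun was not called with DESeq2's size factors (-0.53) or DESeq2 (-0.54), leaving 0 called lower. In Ly6Ghi over NL, Junb reversed to -0.13 on the FPKM scale, where all-gene calls split 1436 to 5162 against 3712 to 5162 on counts. Jun was not called there (0.15), with upper-quartile scaling (0.42), with at least 10 counts in every library (0.44) or without NL replicate 2 (0.57), and Batf was at 0.57 with a pseudocount of 1, so that 1 gene was called higher under these settings and 0 with that pseudocount. In Ly6Glow over NL, the FPKM scale reversed Jun (-0.68, or -0.69 with 0.1), Jund (-0.44), Fos (-0.49) and Fosl2 (-0.61), and did not call Junb (0.42) or Bach1 (0.0029), but called Maff (-0.94), giving 1 higher and 5 lower (all genes 1128 and 6473 against 4049 and 5760). Upper-quartile scaling and the minimum of 10 counts reversed Jun (-0.18 and -0.17) and Fosl2 (-0.10 and -0.094) and left Bach1 at 0.51 and 0.52. Jun, at 0.01 in the main analysis, also reversed without Ly6Glow replicate 2 and without NL replicate 2, and leaving out 1 replicate at a time gave -0.037 to 0.049. The cause of these changes was not tested. A fold threshold of 1 left 0 higher and 0 lower in Ly6Glow over Ly6Ghi (all genes 342 and 963 of 14108) and 1 higher in Ly6Ghi over NL (all genes 1900). No fold threshold gave 8 higher in Ly6Glow over Ly6Ghi (all genes 3686) and 6 higher in Ly6Glow over NL (all genes 5591). Leaving out each replicate in turn gave 1 to 2 higher in Ly6Ghi over NL, and in the other comparisons and directions the counts did not move. With the replicate block, which the data do not call for, 4 genes were called higher and 1 lower in Ly6Glow over Ly6Ghi, as without it, and none of the 30 calls changed. Of 1134 alternative values of the 71 named listed genes and comparisons, 1116 kept direction and call and 18 were lost, 17 of them on the FPKM scale.

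Batf, with 201 to 363 estimated counts per library, had the largest SE.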
